A study of Mus musculus with 100 samples.

Results

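The knee joints of MRL/MpJ mice were examined at 1-week post-injury, by comparing 5 injured joints with 4 uninjured contralateral joints over every gene of the deposited count table. The members are the libraries whose labels give the strain MRL/MpJ, the 1-week collection and either joint, which are 9 of the 100 libraries of the series. The series covers 3 inbred strains labelled by their susceptibility to post-traumatic osteoarthritis, namely MRL/MpJ (not susceptible), C57BL/6 (moderately susceptible) and STR/ort (highly susceptible), collected before injury and at 3 times after it, of which 1-week is the second. Mice were 10 weeks old when the right knee was loaded once in compression with 10 to 12 N, which tears the anterior cruciate ligament. The other knee of an injured mouse is the control in these groups, so the control has not been loaded but belongs to an animal with an injured leg, and no sham-loaded group was used here. A library is a whole joint, cut at the edges of femur and tibia with traces of soft tissue left on it, so bone, marrow, cartilage, meniscus, synovium, ligament, fat and muscle are pooled. In such bulk samples fewer cells of a type and less RNA per cell cannot be told apart. The labels do not say that the libraries of a group came from separate animals, and the p-values therefore measure the spread between these libraries.

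Total counts of the 9 libraries ranged from 7520285 to 12253482, with a median of 10093561, and no replicates were identical. The first principal component, which held 38.1% of the variance, placed the 5 injured joints on one side and the 4 uninjured joints on the other. On the second component, with 19.2%, the injured joint of replicate 3 stood apart from the rest. Named genes in which its level was flagged as extreme are listed near the end, and only some of these levels stand beside the results. The labels put these 9 libraries in experimental batch 1, together with all joints of 0-day and 1-day, while the joints of 2-weeks form batch 2.

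A torn ligament in a whole joint sets off repair in several tissues. Fibroblasts of the synovium, the ligament stump and the joint capsule become active and lay down collagen III, fibronectin and proteoglycans, while metalloproteinases of the MMP and ADAMTS families cut old and new matrix and TIMP proteins hold them in check. MRL/MpJ is known as a strain that heals ear wounds and cartilage defects unusually well, and STR/ort as one that develops osteoarthritis without injury.

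At 1-week the response of MRL/MpJ joints was made up mostly of genes that rose. A gene was called when the adjusted p of edgeR's quasi-likelihood test was below 0.05 and the change was over 1.5-fold, and of 17262 genes tested 508 (2.94%) were called higher in injured joints and 33 (0.191%) lower. Among the 508, the median fold was 1.97, with 245 genes over 2-fold and 40 over 4-fold. The 33 lower genes had a median fold of 1.69 and 9 were over 2-fold. In 478 of the 508 every injured joint lay above every uninjured one, and in 29 of the 33 every injured joint lay below. For reference, 997 of all 17310 genes (5.76%) had all injured joints above and 517 (2.99%) all below. Without injured replicate 3 the counts were 446 higher and 50 lower. The 33 lower genes depended on single libraries, with 19, 10, 11 and 9 left when injured replicate 2, injured replicate 4, uninjured replicate 1 or uninjured replicate 2 was left out. When the test itself asked for more than 1.5-fold, 153 genes were higher and 0 lower. For the 508, the median difference between the uninjured joints of 1-week and the 4 joints of 0-day was -0.06 on the log2 scale. The quartiles were -0.18 and 0.06. The median was 0.08 for the 33 lower genes. Over all genes with a mean of at least 1 CPM (counts scaled to a common library size) it was -0.002. The 508 and the 33 were called against these same uninjured joints. A low level there in the 508, and a high one in the 33, is thus partly built in. The medians of the called genes therefore cannot show whether the contralateral joints stayed at their level before injury.

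**Figure D1:**
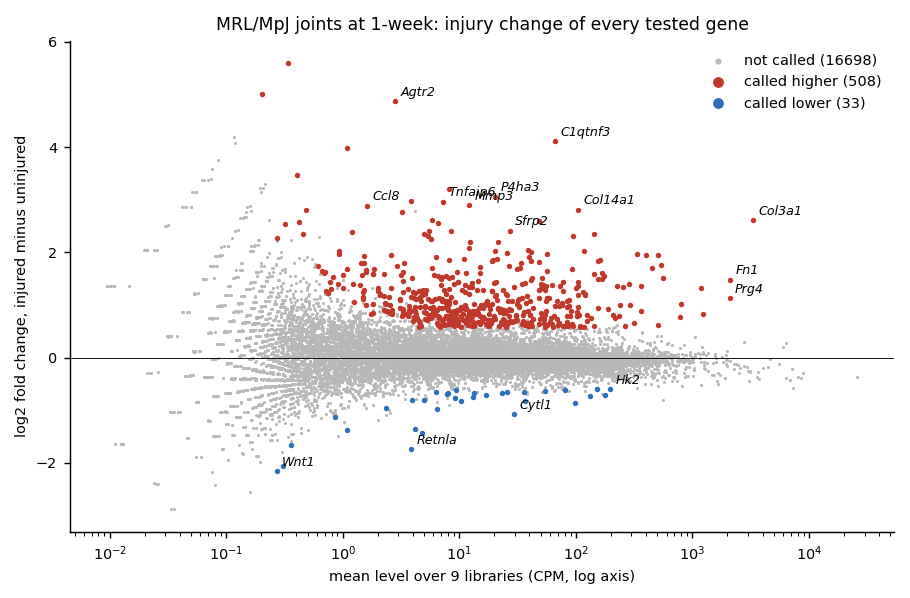
Each point is a tested gene, with its mean level over the 9 MRL/MpJ libraries of 1-week in CPM (log axis) against its log2 fold change between injured and uninjured joints. The 508 genes called higher (red) reach over the whole range of levels, and the 33 called lower (blue) are few and mostly small in change. Grey points are the 16698 genes not called, and 23 genes with no count in any of the 9 libraries are not drawn.

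Collagens of fibrous tissue had the largest share of genes called higher of any list. Of 17 tested, 13 rose and none fell, against the 2.94% of all genes called higher, and the median log2 fold change of the list was 1.09, against -0.01 over all genes. Levels are given as counts scaled to a common library size (CPM). Col14a1, a collagen that sits on the surface of fibrils in tendon, skin and healing tissue, had the smallest adjusted p of all genes. Its level was 186, 171, 168, 164 and 153 CPM in the 5 injured joints and 24.0, 20.3, 27.3 and 26.8 CPM in the uninjured joints, a log2 fold change of 2.81 ± 0.17 (SE, here and below) with an adjusted p of 2.3e-12. The lowest injured joint was thus far above the highest uninjured one. Col3a1, the fibrillar collagen of early repair tissue, stood at 5158, 4927, 6039, 5150 and 4883 CPM in injured joints and at 820, 703, 860 and 1130 CPM in uninjured ones (2.61 ± 0.23, adjusted p = 9.9e-09). The groups did not overlap, although uninjured replicate 4 was higher than the other uninjured joints for many collagen genes.

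The 3 chains of collagen VI, which forms beaded filaments around cells, rose together. The log2 fold changes were 1.95 ± 0.19 for Col6a1, 1.95 ± 0.20 for Col6a2 and 1.97 ± 0.18 for Col6a3, whose level went from between 103 and 162 CPM in uninjured joints to between 456 and 560 CPM in injured joints. Col5a1, a chain of the collagen V that starts fibrils, rose by 1.39 ± 0.21 (adjusted p = 3.9e-05). The 2 genes of collagen I, the main collagen of bone, tendon and scar, were not called. Col1a1 was at 6078, 6134, 6025, 7470 and 8633 CPM in injured joints and at 5285, 4712, 5015 and 8001 CPM in uninjured joints (0.29 ± 0.21, adjusted p = 0.62). Uninjured replicate 4 lay inside the injured range, and Col1a2 had the same pattern (0.21 ± 0.20, adjusted p = 0.73), with 7453 CPM in uninjured replicate 4 against 4787 to 5123 CPM in the other uninjured joints.

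Enzymes that modify and crosslink collagen rose in 10 of 19 tested, with a list median of 0.59. The largest change was that of P4ha3, a subunit of prolyl 4-hydroxylase, the enzyme that makes the collagen helix stable. P4ha3 was at 29.9, 34.0, 41.2, 33.9 and 27.7 CPM in injured joints and at 3.50, 4.43, 3.93 and 4.48 CPM in uninjured joints (3.06 ± 0.25, adjusted p = 2.6e-09). The injured joints were all at least several times above the uninjured ones. Lysyl oxidases, which crosslink collagen and elastin, changed by smaller amounts, with Loxl2 at 1.22 ± 0.18, Loxl1 at 0.90 ± 0.15, Loxl3 at 0.80 ± 0.17 and Lox at 0.79 ± 0.18. The call of Lox was lost with 2 factors of unwanted variation (0.67, adjusted p = 0.07). Pcolce, which helps to cut the end off procollagen, rose by 1.01 ± 0.16.

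Of the activated fibroblast and matricellular genes 20 of 32 tested rose and none fell, with a median of 1.16 and a positive value for all 32. Fn1, the fibronectin of the provisional matrix, was at 2967, 2887, 2889, 2869 and 3028 CPM in injured joints and at 1041, 924, 1042 and 1274 CPM in uninjured joints (1.48 ± 0.19, adjusted p = 2.1e-06). The injured joints differed among themselves by much less than they differed from the controls. Postn, a matricellular protein of ligament and periosteum, was at 650, 762, 1068, 790 and 600 CPM in injured joints against 203, 163, 244 and 324 CPM (1.76 ± 0.25, adjusted p = 1.1e-05), with the highest value in injured replicate 3. Thbs3, a thrombospondin of cartilage and tendon, rose by 1.81 ± 0.17, the microfibril genes Mfap2 and Mfap4 by 1.51 ± 0.14 and 1.99 ± 0.19, and Pdpn, a glycoprotein on activated synovial fibroblasts, by 1.85 ± 0.20. Tnc, the tenascin of wounds and tendon, was not called (0.42 ± 0.14, adjusted p = 0.10).

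Of the small leucine-rich proteoglycans, which bind collagen fibrils and set their width, 9 of 13 rose and none fell (median 0.96). Their summed level was 4465 to 5798 CPM in injured joints and 2289 to 2694 CPM in uninjured joints, with no overlap. Kera, keratocan, was at 65.8, 47.3, 69.7, 62.8 and 44.5 CPM in injured joints and at 18.7, 11.7, 14.8 and 12.5 CPM in uninjured joints (2.04 ± 0.21, adjusted p = 6.4e-08). Aspn, asporin, rose by 1.86 ± 0.26, Lum, lumican, by 1.35 ± 0.16, Prelp by 1.35 ± 0.15, Bgn, biglycan, by 1.31 ± 0.14 and Dcn, decorin, by 0.82 ± 0.12. Genes of tendon and ligament rose in 5 of 9, a list that shares Kera and Fmod with the proteoglycans, Thbs4 with the activated fibroblasts and Scx with the transcription factors of cartilage and bone, so that Tnmd alone of the 5 stands in no other list. Tnmd, tenomodulin, a membrane protein of mature tendon cells, was at 78.9, 70.9, 118, 87.3 and 62.4 CPM in injured joints and at 24.2, 16.9, 22.4 and 24.1 CPM in uninjured joints (1.96 ± 0.26, adjusted p = 6.0e-06). Scx, scleraxis, the transcription factor of tendon progenitors, rose by 1.23 ± 0.25 (adjusted p = 0.0019), and Thbs4 by 1.51 ± 0.17. Mkx, another tendon transcription factor, missed the call at 0.74 ± 0.23 (adjusted p = 0.057), with all injured joints above the uninjured ones and a call by DESeq2 (adjusted p = 0.025).

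**Figure D2:**
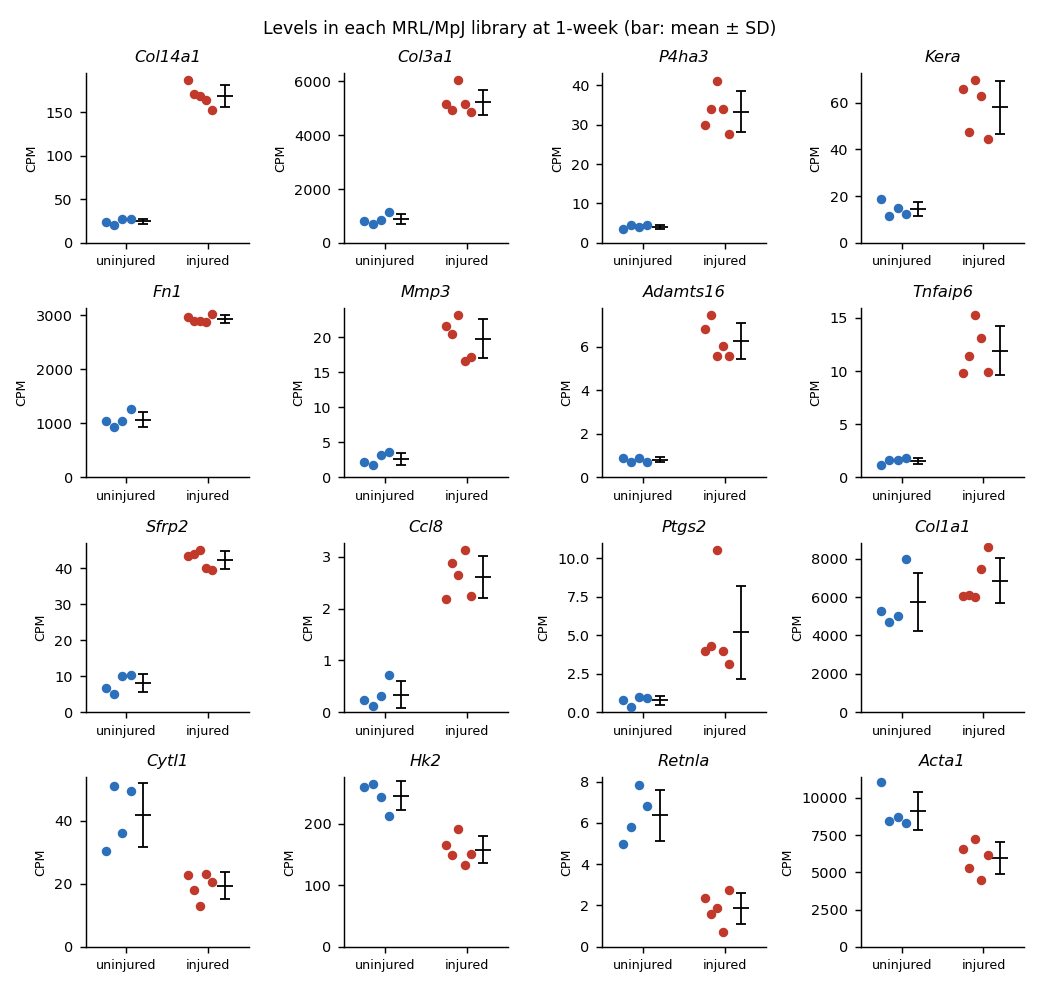
Levels of 16 genes in CPM in each of the 4 uninjured (blue) and 5 injured (red) MRL/MpJ joints of 1-week, with the bar at the mean and the whiskers at the SD. The matrix, protease and hyaluronan genes of the upper rows separate the joints with no overlap, Col1a1 overlaps, and Cytl1, Hk2, Retnla and Acta1 lie lower in the injured joints.

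The promoters of 3 genes with large changes are shown to give the sequence around their start sites. They come from RefSeq on GRCm38.p6, the assembly that mm10 names, and run from 250 bases before to 50 bases after the annotated start. Capitals mark matches to 4 motifs that were searched on both strands. The AP-1 motif was spelled TGANTCA. The TEAD motif was spelled GGAATG, which reads CATTCC when it lies on the minus strand. For the E-box the letters searched were CACGTG, and no such match was found in these windows. For the TATA box they were TATAAA, and none of the matches shown overlap each other. Mmp3 (chr9:7445572-7445871, plus strand) holds an AP-1 match and the TATAAA letters, at -7 from the annotated start.

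Mmp3: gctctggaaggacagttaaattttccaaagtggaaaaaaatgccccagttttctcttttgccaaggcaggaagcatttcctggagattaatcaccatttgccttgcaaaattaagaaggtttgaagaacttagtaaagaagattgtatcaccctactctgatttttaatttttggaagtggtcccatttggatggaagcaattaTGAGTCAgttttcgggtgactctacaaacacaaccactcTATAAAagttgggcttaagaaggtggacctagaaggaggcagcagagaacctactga

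Tnfaip6 (chr2:52037863-52038162, plus strand) holds the same AP-1 letters as Mmp3, farther from its start, and a TEAD match on the other strand.

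Tnfaip6: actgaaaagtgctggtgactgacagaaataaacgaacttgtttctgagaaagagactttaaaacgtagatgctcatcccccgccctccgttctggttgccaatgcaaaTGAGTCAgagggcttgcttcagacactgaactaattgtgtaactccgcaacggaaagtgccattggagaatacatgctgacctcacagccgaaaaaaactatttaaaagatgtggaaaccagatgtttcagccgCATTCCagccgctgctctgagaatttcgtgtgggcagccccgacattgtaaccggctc

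Col3a1 (chr1:45311288-45311587, plus strand) holds a TEAD match on the other strand and the TATAAA letters, at -117 from the annotated start. No AP-1 match lies in this window.

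Col3a1: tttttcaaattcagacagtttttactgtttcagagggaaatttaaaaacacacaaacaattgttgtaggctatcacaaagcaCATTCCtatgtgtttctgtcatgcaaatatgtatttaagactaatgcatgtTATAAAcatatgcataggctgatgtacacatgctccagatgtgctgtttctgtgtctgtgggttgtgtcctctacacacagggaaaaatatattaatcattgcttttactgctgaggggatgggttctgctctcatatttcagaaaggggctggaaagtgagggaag

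Over the 353 genes called higher that had a window, the AP-1 letters occurred in 8.78%, the TEAD letters in 16.7%, the E-box in 4.25% and the TATA box in 12.5%. Over all 12773 tested genes with a window the shares were 5.67%, 12.6%, 9.5% and 8.35%, and over all 27025 windows of the reference 7.93%, 14.6%, 7.24% and 14.2%. These shares describe letters in a window and were not tested.

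Matrix metalloproteinases rose in 5 of 16, with a list median of 0.36. Mmp3, stromelysin-1, which cuts proteoglycans and activates other MMPs, was at 21.5, 20.5, 23.1, 16.6 and 17.2 CPM in injured joints and at 2.15, 1.75, 3.23 and 3.57 CPM in uninjured joints (2.90 ± 0.32, adjusted p = 2.6e-07). Mmp2, gelatinase A of stromal cells, was at 328, 345, 384, 340 and 319 CPM against 137, 108, 132 and 174 CPM (1.35 ± 0.15, adjusted p = 3.0e-07). In both genes the injured joints lay wholly above the uninjured ones. Mmp19 rose by 1.42 ± 0.20, and Mmp14, the membrane protease that activates pro-MMP2, by 0.93 ± 0.13. The collagenase Mmp13, made by hypertrophic chondrocytes and osteoblasts, was at 283, 328, 334, 457 and 354 CPM in injured joints and at 323, 314, 362 and 460 CPM in uninjured joints (-0.02 ± 0.16, adjusted p = 0.97), and the groups overlapped. Mmp9, the gelatinase of osteoclasts and neutrophils, was not called either (-0.10 ± 0.11, adjusted p = 0.80).

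Of 24 ADAMTS and ADAMTS-like genes 8 rose (median 0.52). Adamts16 was at 6.82, 7.45, 5.57, 6.06 and 5.56 CPM in injured joints and below 1 CPM in each uninjured joint (2.97 ± 0.34, adjusted p = 4.7e-07). Adamts12 rose by 1.43 ± 0.17, Adamts15 by 1.31 ± 0.18 and Adamtsl3 by 1.05 ± 0.14. Of the aggrecanases, which cut the main proteoglycan of cartilage, Adamts4 rose by 1.21 ± 0.28 (adjusted p = 0.0055), from between 2.32 and 3.67 CPM to between 6.27 and 7.28 CPM, and Adamts5 was not called (0.31 ± 0.13, adjusted p = 0.23) with 57.8 to 72.3 CPM in injured and 48.1 to 55.2 CPM in uninjured joints, which did not overlap. Adamts1 was not called (0.16 ± 0.15, adjusted p = 0.75), and Adamts2, the protease that trims procollagen, passed the adjusted p at 0.014 but not the fold (0.51 ± 0.13).

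Among the 4 TIMP inhibitors, Timp1 and Timp2 rose. Timp1, the inducible inhibitor, was at 27.7, 30.7, 36.9, 32.6 and 31.4 CPM in injured joints and at 11.5, 10.0, 12.4 and 19.6 CPM in uninjured joints (1.28 ± 0.23, adjusted p = 0.00035). Timp2, which also serves in the activation of MMP2, was at 431 to 480 CPM in injured and 240 to 275 CPM in uninjured joints (0.88 ± 0.12, adjusted p = 4.5e-06). In the plasminogen activator system 2 of 8 rose, among them Plat, tissue-type activator, by 0.89 ± 0.18. The urokinase gene Plau (0.39 ± 0.14, adjusted p = 0.13) and its receptor Plaur (0.09 ± 0.11, adjusted p = 0.81) were not called. Of the 35 metallopeptidases that the study lists from its own comparisons 20 rose, with a median of 0.81. That list was chosen on these libraries and is not independent evidence of its direction.

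In the list of synovium and hyaluronan genes 5 of 13 rose (median 0.48), and their summed level was 2981 to 3553 CPM in injured joints against 1741 to 1810 CPM in uninjured joints. Prg4 makes up most of this sum. It encodes lubricin, the lubricant of synovial lining and cartilage surface, and was at 3013, 2773, 2813, 2636 and 2441 CPM in injured joints and at 1313, 1286, 1230 and 1268 CPM in uninjured joints (1.13 ± 0.19, adjusted p = 0.00018). The uninjured joints were nearly equal and the injured joints all higher. Tnfaip6, TSG-6, which links inter-alpha-inhibitor chains to hyaluronan, was at 9.81, 11.4, 15.2, 13.1 and 9.95 CPM in injured joints and at 1.13, 1.63, 1.61 and 1.83 CPM in uninjured joints (2.96 ± 0.35, adjusted p = 7.1e-07). Has1, a hyaluronan synthase of synovial fibroblasts, was at 8.0, 9.94, 8.82, 13.4 and 11.5 CPM against 1.47, 1.17, 2.32 and 2.14 CPM (2.55 ± 0.42, adjusted p = 0.00014). Injured and uninjured joints were far apart in both genes. Has2 was called (0.74 ± 0.18, adjusted p = 0.01), but the groups overlapped and the call was lost without uninjured replicate 2 (adjusted p = 0.069) or replicate 4 (adjusted p = 0.052). Htra1, a serine protease of the synovium and cartilage matrix, rose by 0.98 ± 0.17.

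Of 21 cartilage matrix genes Prg4 and Comp rose, Cytl1 fell and 18 were not called (median -0.20). Comp, a pentameric matrix protein of cartilage and tendon, rose by 1.01 ± 0.18, from 170 to 233 CPM in uninjured joints to 324 to 427 CPM in injured joints. Cytl1, a secreted protein of chondrocytes, was at 22.7, 17.9, 12.8, 23.1 and 20.5 CPM in injured joints and at 30.3, 51.0, 36.0 and 49.3 CPM in uninjured joints (-1.07 ± 0.24, adjusted p = 0.0041), with no overlap. Col2a1, the collagen II of hyaline cartilage, varied widely in both groups, from 622 to 1969 CPM in injured and from 1003 to 1851 CPM in uninjured joints (-0.20 ± 0.31, adjusted p = 0.86), and Col9a1 did the same (-0.31 ± 0.32, adjusted p = 0.76). Acan, aggrecan, was just short of the call at 0.62 ± 0.19 (adjusted p = 0.052) and was called with DESeq2 (adjusted p = 0.021), with housekeeping scaling and with a fit of the MRL/MpJ joints alone (adjusted p = 0.0081). Of the 14 chondrogenic and osteogenic transcription factors Scx, Sox5 and Twist1 rose. Twist1 rose by 0.83 ± 0.14, while the call of Sox5 (0.75 ± 0.20, adjusted p = 0.023) was lost in 4 of the 9 fits that leave out 1 library, namely without injured replicate 4 or uninjured replicates 1, 3 or 4 (adjusted p up to 0.095). Sox9, the master factor of chondrocytes, overlapped between the joints (0.46 ± 0.26, adjusted p = 0.44), and Runx1 passed the adjusted p at 0.03 but not the fold (0.37 ± 0.10).

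None of 13 osteoblast and osteocyte genes and none of 13 osteoclast genes was called, with medians of -0.18 and 0.01 and positive values in 1 and 7 genes. Bglap, osteocalcin, was at 227, 201, 172, 265 and 304 CPM in injured joints and at 310, 291, 284 and 418 CPM in uninjured joints (-0.45 ± 0.20, adjusted p = 0.29). With 1 factor of unwanted variation it was called lower (-0.64, adjusted p = 0.027), and with 2 factors it was not (adjusted p = 0.11). Its close copy Bglap2 (-0.22 ± 0.27, adjusted p = 0.81) may share reads with it. Acp5, the acid phosphatase of osteoclasts, was at 175 to 304 CPM against 227 to 324 CPM, and Ctsk, cathepsin K, at 345 to 454 CPM against 274 to 398 CPM (adjusted p = 0.94 and 0.078). Counts of these defining bone and cartilage markers were present in every library, as the label of a whole joint would have it.

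Of 43 Wnt ligands, receptors and antagonists 8 rose and 1 fell (median 0.14). Sfrp2, a secreted frizzled-related protein of fibroblasts, was at 43.4, 43.9, 45.2, 40.1 and 39.5 CPM in injured joints and at 6.79, 5.13, 10.1 and 10.3 CPM in uninjured joints (2.41 ± 0.24, adjusted p = 4.1e-08), with no overlap. Sfrp1 rose by 1.17 ± 0.17, and the Dickkopf genes Dkk2 and Dkk3 by 1.08 ± 0.16 and 1.37 ± 0.20. The frizzled receptors Fzd1 and Fzd2 rose by 1.00 ± 0.14 and 1.07 ± 0.24. Rspo2, a secreted agonist that enhances Wnt signalling, was at 11.3, 8.89, 11.2, 10.5 and 8.29 CPM in injured joints and at 3.28, 4.43, 3.43 and 3.06 CPM in uninjured joints (1.54 ± 0.36, adjusted p = 0.0064), with no overlap. Among the ligands, Wnt1 was lower (-2.16 ± 0.60, adjusted p = 0.029) at levels under 1 CPM in every joint. Its call was lost without injured replicate 1, 2 or 4 or uninjured replicate 1 or 2 (adjusted p up to 0.12). It was also lost in the fit of the MRL/MpJ joints alone (adjusted p = 0.052) and with DESeq2. A replicate block by title or library number and 2 factors of unwanted variation ended it too. Wnt2 overlapped between the joints (1.44 ± 0.64, adjusted p = 0.28).

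Of 31 TGF-beta and BMP genes 5 rose and none fell (median 0.22). The ligand genes Tgfb1 and Tgfb2 were not called (-0.09 ± 0.14 and 0.22 ± 0.13, adjusted p = 0.86 and 0.50). Fstl1, a secreted follistatin-like glycoprotein of mesenchymal cells, was at 646, 622, 713, 655 and 574 CPM in injured joints and at 207, 178, 202 and 224 CPM in uninjured joints (1.70 ± 0.16, adjusted p = 2.1e-08). Tgfbi, a matrix protein induced by TGF-beta, rose by 0.94 ± 0.14 and Ltbp2, a latent TGF-beta binding protein family member, by 1.02 ± 0.19. Chrd, the BMP antagonist chordin, rose by 0.85 ± 0.22 at levels of 1.73 to 3.68 CPM (adjusted p = 0.051 with 2 factors of unwanted variation). Of 12 IGF genes 3 rose (median 0.52). Igf1, the growth factor of tissue repair, was at 207, 214, 262, 218 and 188 CPM in injured joints and at 80.1, 72.7, 80.2 and 83.8 CPM in uninjured joints (1.49 ± 0.16, adjusted p = 1.1e-07), all injured joints lying more than 100 CPM above the highest control. Igf2 rose by 0.92 ± 0.13 and Igfbp7 by 0.81 ± 0.12.

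Of the 24 cytokines and chemokines that the study names and that could be tested, 6 rose and none fell (median 0.61), a list chosen on these libraries. Il33, an alarmin of stromal and endothelial nuclei, was at 13.9, 10.2, 16.0, 13.9 and 13.1 CPM in injured joints and at 6.11, 3.03, 5.04 and 6.11 CPM in uninjured joints (1.44 ± 0.24, adjusted p = 0.00018). Ccl8, a chemokine of tissue macrophages, was at 2.18, 2.88, 2.65, 3.12 and 2.24 CPM against 0.23, 0.12, 0.30 and 0.71 CPM (2.89 ± 0.58, adjusted p = 0.0014), and Cxcl16 rose by 0.91 ± 0.20. These 3 genes separated the joints completely. The calls of Cxcl14 (0.59 ± 0.14), Il11 (1.68 ± 0.49) and Il17d (1.16 ± 0.34) were lost in 4, 7 and 8 of the 9 fits that leave out 1 library. Cxcl14 dropped below 1.5-fold without injured replicate 3, 4 or 5 or uninjured replicate 3. Il11 was called only without injured replicate 1 or uninjured replicate 2 and Il17d only without injured replicate 3, and without uninjured replicate 3 or 2 their adjusted p reached 0.18 and 0.15. The classical cytokines Il1b (-0.19 ± 0.24, adjusted p = 0.82), Il6 (0.55 ± 0.66, adjusted p = 0.81) and Tnf (-0.13 ± 0.18, adjusted p = 0.84) were not called, and neither were Ccl2 (0.63 ± 0.51, adjusted p = 0.67), Cxcl1 (1.86 ± 0.69, adjusted p = 0.15) and Ccl7 (2.28 ± 0.79, adjusted p = 0.11), all 3 at under 2 CPM. Ccl7 was called with DESeq2 (adjusted p = 0.018), and all its injured joints lay above the uninjured ones. In the fit of the MRL/MpJ joints alone Ccl7 and Cxcl1 were called (adjusted p = 0.015 and 0.042).

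In the list of prostaglandin synthesis 2 of 16 genes rose (median 0.01). Ptgs2, the inducible cyclooxygenase, was at 4.00, 4.32, 10.5, 3.95 and 3.12 CPM in injured joints and at 0.79, 0.35, 1.01 and 0.92 CPM in uninjured joints (2.77 ± 0.47, adjusted p = 0.00018). Injured replicate 3 was well above the other injured joints, which were still above all uninjured ones. The constitutive Ptgs1 was not called (-0.05 ± 0.08, adjusted p = 0.84). Pla2g2a, a secreted phospholipase, was called (1.67 ± 0.47, adjusted p = 0.034), with overlapping groups, and held only without injured replicate 1 or 2 among the fits that leave out 1 library (adjusted p up to 0.13).

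Of 19 macrophage markers 4 rose (median 0.22), and the summed level of the list was 2239 to 2704 CPM in injured and 2441 to 2701 CPM in uninjured joints. The defining markers Adgre1, F4/80 (0.31 ± 0.11, adjusted p = 0.11), and Cd68 (0.19 ± 0.10, adjusted p = 0.44) were not called. Gpnmb, a glycoprotein of lipid-laden macrophages and osteoclasts, was at 22.8, 20.3, 18.2, 20.8 and 19.1 CPM in injured joints and at 9.38, 6.76, 5.95 and 8.25 CPM in uninjured joints (1.45 ± 0.18, adjusted p = 1.7e-06). Folr2, a folate receptor of resident macrophages, rose by 1.02 ± 0.24 and Cd14 by 0.92 ± 0.21. Both Gpnmb and Folr2 separated the joints without overlap. Msr1, a scavenger receptor, was called at 0.84 ± 0.23 but not without injured replicate 2 or uninjured replicates 2 or 4 (adjusted p up to 0.12). Ms4a7, a membrane protein of macrophages that stands outside the list, rose by 1.35 ± 0.13.

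Of 18 complement genes 4 rose (median 0.07). C3ar1, the receptor of the fragment C3a on myeloid cells, rose by 1.35 ± 0.24, Cfb, factor B of the alternative pathway, by 0.97 ± 0.18 and C1ra by 0.71 ± 0.13. C4b rose by 0.89 ± 0.20, with reads that a near-identical neighbour, C4a, may share, and with 2 factors of unwanted variation its adjusted p was 0.076. The C1q chains C1qa and C1qb, made by macrophages, were not called (0.18 ± 0.13 and 0.11 ± 0.19, adjusted p = 0.62 and 0.88).

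No gene was called in the lists of marrow neutrophils (12 tested, median -0.09), T cells (10, -0.01), B cells (9, -0.28), mast cells (9, 0.33), erythroid cells (8, -0.10), pericytes (7, 0.08), white and brown fat (12, -0.15), skin epidermis (2, -0.04), interferon-stimulated genes (22, 0.13), the cell cycle (24, -0.08), immediate early genes (15, 0.06), heat shock genes (9, -0.12) and the 25 housekeeping genes (median 0.04). Of the 9 B cell values 1 was positive, and the summed B cell level was 385 to 454 CPM in injured and 468 to 564 CPM in uninjured joints, with no overlap. None of the 12 neutrophil values was positive, ranging between -0.18 and -0.02, and their summed levels overlapped (15140 to 20020 CPM against 18260 to 19950 CPM). All 17 lists without a call by edgeR, those of bone and of fast and slow muscle included, hold 216 genes. Of these, 27 (12.5%) had an unadjusted p below 0.05, 14 of them positive and 13 negative. The share of all genes was 14.3%, called genes included. These lists were pooled because they held no call, which keeps their share low, so the shares are not alike. DESeq2 called 1 of the 216, a pericyte marker. In the endothelium and angiogenesis list 3 of 19 rose (median 0.16). The endothelial markers Pecam1 (0.18 ± 0.09, adjusted p = 0.34) and Cdh5 (0.06 ± 0.08, adjusted p = 0.83) were not called. Angptl2, a secreted angiopoietin-like protein also made by fibroblasts, rose by 1.44 ± 0.18, from 49.8 to 61.5 CPM in uninjured joints to 128 to 174 CPM in injured joints. Apln, apelin (0.88 ± 0.21), and Angptl4 (0.85 ± 0.21) were called, but without uninjured replicate 3 the adjusted p was 0.068 and 0.052.

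In the list of Schwann cells and neurotrophins 2 of 14 rose (median 0.10). Gap43, a protein of growing axons and repair Schwann cells, was at 1.54, 2.35, 2.14, 2.57 and 2.63 CPM in injured joints and at 0.68, 0.47, 0.50 and 0.71 CPM in uninjured joints (1.93 ± 0.29, adjusted p = 3.1e-05), with no overlap. Pmp22, a myelin protein also found in fibroblasts, was called at 0.63 ± 0.13 and dropped below 1.5-fold without injured replicate 3 (0.58) or uninjured replicates 3 or 4 (0.56 and 0.58).

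**Figure D3:**
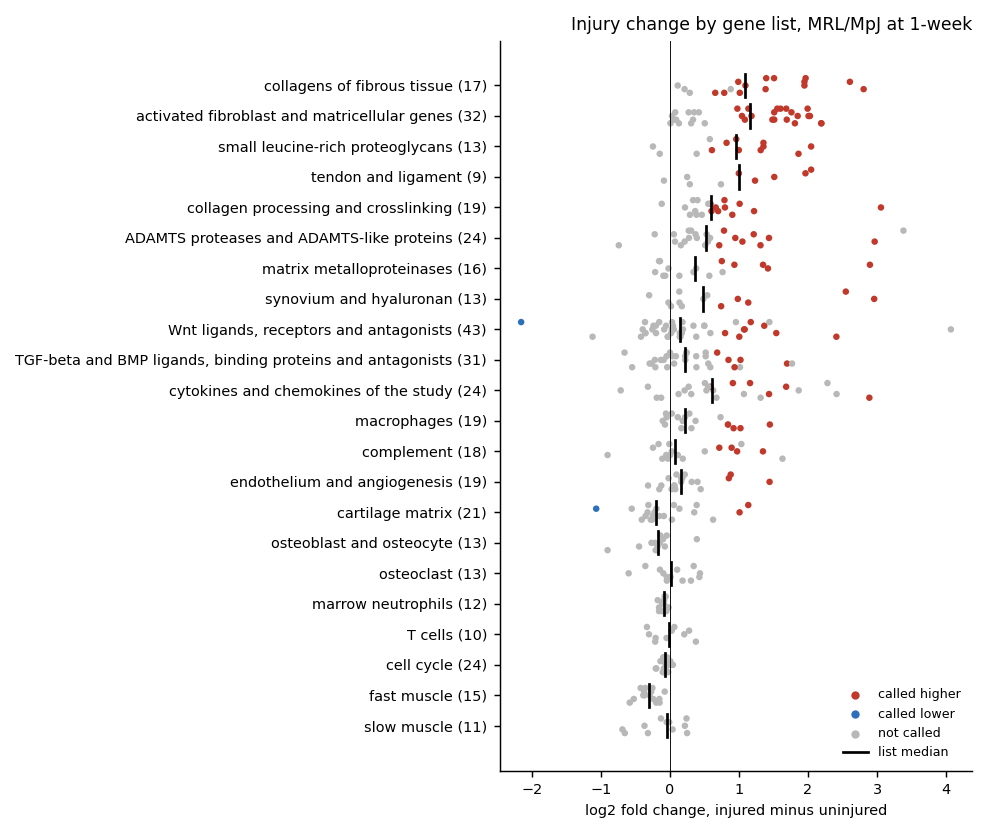
Each point is a gene of a list, placed by its log2 fold change between injured and uninjured MRL/MpJ joints at 1-week, with red for called higher, blue for called lower and grey for not called. The number of genes tested stands in brackets and the black bar is the list median. The lists of fibrous collagens, activated fibroblasts, proteoglycans and tendon have medians of 0.96 to 1.16. Those of marrow neutrophils, T cells, bone, cell cycle and muscle lie near or below 0.

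Outside these lists, further genes were among those with the smallest adjusted p. Ssc5d, a secreted scavenger receptor protein, was at 135, 149, 177, 139 and 126 CPM in injured joints and at 31.6, 27.1, 28.3 and 32.9 CPM in uninjured joints (2.31 ± 0.18, adjusted p = 1.5e-09). Nox4, an NADPH oxidase of fibroblasts that makes hydrogen peroxide, was at 14.6, 13.1, 17.0, 10.6 and 11.4 CPM against 2.60, 2.45, 2.62 and 2.55 CPM (2.41 ± 0.21, adjusted p = 9.9e-09). In both genes the uninjured joints were almost equal and the injured joints all several times higher. Fndc1, a protein with fibronectin type III domains, rose by 2.35 ± 0.22, AW551984 by 2.62 ± 0.23, Dab2, an endocytic adaptor, by 1.35 ± 0.12, Igsf10 by 1.90 ± 0.18 and the long noncoding RNA Meg3 by 1.65 ± 0.16.

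The largest changes among called genes with a mean of at least 1 CPM, chosen after their values were seen, were in genes of no list. Agtr2, the angiotensin II type 2 receptor, known from fetal and wounded tissue, was at 4.36, 4.05, 6.51, 5.60 and 4.00 CPM in injured joints and at 0.11, 0, 0.40 and 0.10 CPM in uninjured joints (4.87 ± 0.54, adjusted p = 2.3e-07). Next came C1qtnf3, CTRP3, a secreted protein of cartilage and fat, at 74.2, 97.3, 204, 118 and 73.2 CPM against 6.56, 5.94, 5.84 and 8.46 CPM (4.11 ± 0.58, adjusted p = 1.3e-05). Injured replicate 3 had the highest level of both, and the lowest injured joint was still far above every uninjured one. Ereg, the growth factor epiregulin, and Crabp2, which carries retinoic acid to the nucleus, had log2 fold changes of 3.98 ± 0.60 and 3.21 ± 0.46, Ereg at under 3 CPM in every joint.

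The genes that fell were few and mostly small in change. Cytl1 has been given with cartilage. Retnla, a resistin-like protein of fat and alternatively activated macrophages, was at 2.36, 1.57, 1.88, 0.74 and 2.73 CPM in injured joints and at 4.97, 5.83, 7.86 and 6.83 CPM in uninjured joints (-1.74 ± 0.38, adjusted p = 0.0033). The joints did not overlap. Hk2, the hexokinase of skeletal muscle and growing cells, was at 166, 149, 192, 132 and 151 CPM in injured joints and at 260, 265, 243 and 213 CPM in uninjured joints (-0.60 ± 0.11, adjusted p = 0.00049). The mitochondrial enzymes Bdh1, of ketone bodies, and Aldh5a1, of GABA breakdown, both fell by 0.68 ± 0.13 on the log2 scale. Sbk2 (-0.76 ± 0.17), Klhl34 (-0.97 ± 0.23), Fam179a (-1.37 ± 0.34) and Asb2, a ubiquitin ligase subunit of muscle (-0.73 ± 0.18), were also among the 10 lower genes with the smallest adjusted p. Single libraries ended several of these calls. Hk2 was under 1.5-fold without injured replicate 2 or 4 or uninjured replicate 1 or 2 (-0.55 to -0.58). The adjusted p rose to 0.053 for Klhl34 without uninjured replicate 2 and to 0.084 for Fam179a without uninjured replicate 1, and for Asb2 to 0.056 without injured replicate 4 and to 0.085 without uninjured replicate 1. With 2 factors of unwanted variation, Cytl1 kept its call, and Hk2, Bdh1, Aldh5a1, Retnla, Sbk2, Klhl34, Fam179a and Asb2 lost theirs. Hk2, Bdh1 and Aldh5a1 lost theirs with 1 factor too, and Hk2 also with housekeeping scaling.

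No gene of the fast muscle list was called, although all 15 values were negative (median -0.30). Their summed level was 82620, 68550, 104300, 62810 and 71040 CPM in the injured joints and 127500, 88140, 104000 and 86630 CPM in the uninjured joints, so the ranges overlapped through injured replicate 3. Acta1, skeletal actin, was lower in all injured joints (4504 to 7265 CPM against 8321 to 11060 CPM) and was not called (-0.58 ± 0.22, adjusted p = 0.15; 0.016 in the fit of the MRL/MpJ joints alone, where it was just short of 1.5-fold), and neither were the fast myosins Myh4 (-0.37 ± 0.25, adjusted p = 0.57) and Myh1 (-0.20 ± 0.24, adjusted p = 0.81), whose sequences are alike enough to share reads. The part of muscle in the lower calls was not tested. None of 11 slow muscle genes was called (median -0.05). With a replicate block by title number, Actc1 of this list and Acta1 were called lower. Actc1 was also called lower with the block by library number and in the fit of the MRL/MpJ joints alone. Myh7, the slow myosin, ranged from 5.46 to 84.0 CPM in injured and from 9.05 to 62.9 CPM in uninjured joints (-0.01 ± 0.60, adjusted p = 1.0). Of 19 genes of muscle regeneration and denervation only Tmem8c, myomaker, which fuses myoblasts, was called (2.58 ± 0.67, adjusted p = 0.017). It stayed under 1 CPM in every joint, overlapped between them, and lost the call without uninjured replicate 2, 3 or 4 (adjusted p = 0.077, 0.058 and 0.051). Embryonic myosin Myh3 (0.16 ± 0.32, adjusted p = 0.90) and perinatal myosin Myh8 (0.20 ± 0.21, adjusted p = 0.77) were not called.

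Of the 16 genes the study names at 1-week 7 rose and none fell (median 0.42), and of the 21 genes it set apart for MRL/MpJ 3 rose (median 0.03). Both lists were chosen on these libraries. From the second list Capg, which caps actin filaments, rose by 0.83 ± 0.14, Fam171b by 1.58 ± 0.26 and Ccdc109b, a subunit of the mitochondrial calcium channel, by 0.88 ± 0.18, while Tpsab1, a tryptase of mast cells (0.68 ± 0.40, adjusted p = 0.49), and B4galnt2, a glycosyltransferase (0.10 ± 0.15, adjusted p = 0.85), were not called. The slow muscle genes Myl2 (-0.32 ± 0.47, adjusted p = 0.85), Myl3 (-0.69 ± 0.40, adjusted p = 0.48) and Actc1 (-0.66 ± 0.30, adjusted p = 0.29) of the first list were not called in MRL/MpJ, and neither was Myoc (-0.25 ± 0.22, adjusted p = 0.71), which stands in both lists. In the fit of the MRL/MpJ joints alone Actc1 was called lower (-0.65, adjusted p = 0.019). It was also called lower with a replicate block by title number (-0.79, adjusted p = 0.0063) or by library number (-0.62, adjusted p = 0.019).

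The response at 1-week was set against that of the same strain at 1-day by testing the difference of the injury changes. Of 17203 genes tested, the change was larger at 1-week in 190 (1.1%) and smaller in 51 (0.296%). Of the 508 genes called at 1-week, 132 (26.0%) were also called higher at 1-day, which is 47.7% of the 277 genes (1.61%) called higher there. The median change of the 508 was 0.32 at 1-day and 0.98 at 1-week. Because the 508 were chosen by their 1-week change, a lower median at another time is partly built in. Fibrous collagens had a larger change at 1-week in 10 of 17 genes, small leucine-rich proteoglycans in 9 of 13 and activated fibroblast genes in 13 of 32. Col14a1 was at 30.7 ± 4.54 CPM (SD, n = 5) in injured and 27.0 ± 1.01 CPM (n = 5) in uninjured joints at 1-day, and its change was larger at 1-week by 2.58 ± 0.26 (adjusted p = 2.0e-07). Its change of 0.19 ± 0.18 at 1-day was not called (adjusted p = 0.68). Col3a1 was called at both times, with 0.71 ± 0.17 at 1-day, and the difference was 1.87 ± 0.25 (adjusted p = 1.2e-05). Kera (difference 2.12 ± 0.32), Aspn (2.05 ± 0.20), Ssc5d (2.56 ± 0.23), Antxr1, a collagen receptor (1.51 ± 0.16), Sfrp2 (1.94 ± 0.27), Mmp2 (1.19 ± 0.17) and Timp2 (0.93 ± 0.11) were not called at 1-day and had larger changes at 1-week. Angptl1 and Itih5, which binds hyaluronan, had negative changes at 1-day (-0.87 ± 0.22 and -0.47 ± 0.06) and positive ones at 1-week (2.59 ± 0.28 and 0.57 ± 0.15), differences of 3.42 ± 0.30 and 1.01 ± 0.09, with both changes of Itih5 short of 1.5-fold. The change of Gpnmb was -0.25 ± 0.17 at 1-day and differed by 1.67 ± 0.25.

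Other genes had a smaller change at 1-week than at 1-day. Ccl2, the monocyte chemokine, was at 10.7 ± 1.59 CPM in injured joints of 1-day and at 0.89 ± 0.53 CPM in uninjured ones (SD, n = 5), a change of 3.63 ± 0.24, from which that of 1-week differed by -3.03 ± 0.60 (adjusted p = 0.0022). Rrad, a small GTPase of injured muscle, had a change of 4.00 ± 0.24 at 1-day, from 4.79 ± 1.77 to 75.0 ± 30.3 CPM (SD, n = 5), and -0.11 ± 0.25 at 1-week, a difference of -4.14 ± 0.41 (adjusted p = 1.5e-07). By 1-week both genes overlapped between injured and uninjured joints. The metallothioneins Mt1 and Mt2, which bind zinc under stress, differed by -1.70 ± 0.18 and -2.38 ± 0.26, and Mt2 was still called at 1-week (0.81 ± 0.23, adjusted p = 0.033), a call that was lost in 6 of the 9 fits that leave out 1 library, namely without injured replicates 2, 4 or 5 or uninjured replicates 1, 2 or 3 (adjusted p up to 0.12). The receptor chain Il4ra differed by -1.13 ± 0.14, Msr1 by -1.15 ± 0.23, Cxcl14 by -0.95 ± 0.16 and Ankrd10 by -0.87 ± 0.12. Timp1 was called at both times and its change was smaller at 1-week by a log2 difference of -0.96 ± 0.21 (adjusted p = 0.0073, and 0.06 without uninjured replicate 4 of 1-week). Mmp3 had changes of 2.40 at 1-day and 2.90 at 1-week, and the difference of 0.47 ± 0.47 did not pass (adjusted p = 0.88).

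Against 2-weeks, 0 of 17203 genes passed with edgeR in either direction, and the smallest adjusted p was 0.052. An unadjusted p below 0.05 was found in 938, a threshold that about 5% of genes pass by chance alone. DESeq2 called 33 larger and 3 smaller at 1-week. Leaving out 2-week injured replicate 4 gave 59 genes, and leaving out 1-week injured replicate 5 or uninjured replicate 4 gave 16 or 15. The time comparison with 2-weeks sets changes within batch 1 beside changes within batch 2. At 2-weeks 203 genes (1.18%) were called higher and 4 (0.0233%) lower, and 182 of the 508 were among the 203, which is 35.8% of the former and 89.7% of the latter. The median change of the 508, which were chosen by their 1-week change, was 0.51 at 2-weeks. Col3a1 had a change of 1.82 ± 0.17 at 2-weeks and Postn of 0.82 ± 0.13, with differences from 1-week of 0.76 ± 0.25 (adjusted p = 0.53) and 0.91 ± 0.19 (adjusted p = 0.09).

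**Figure D4:**
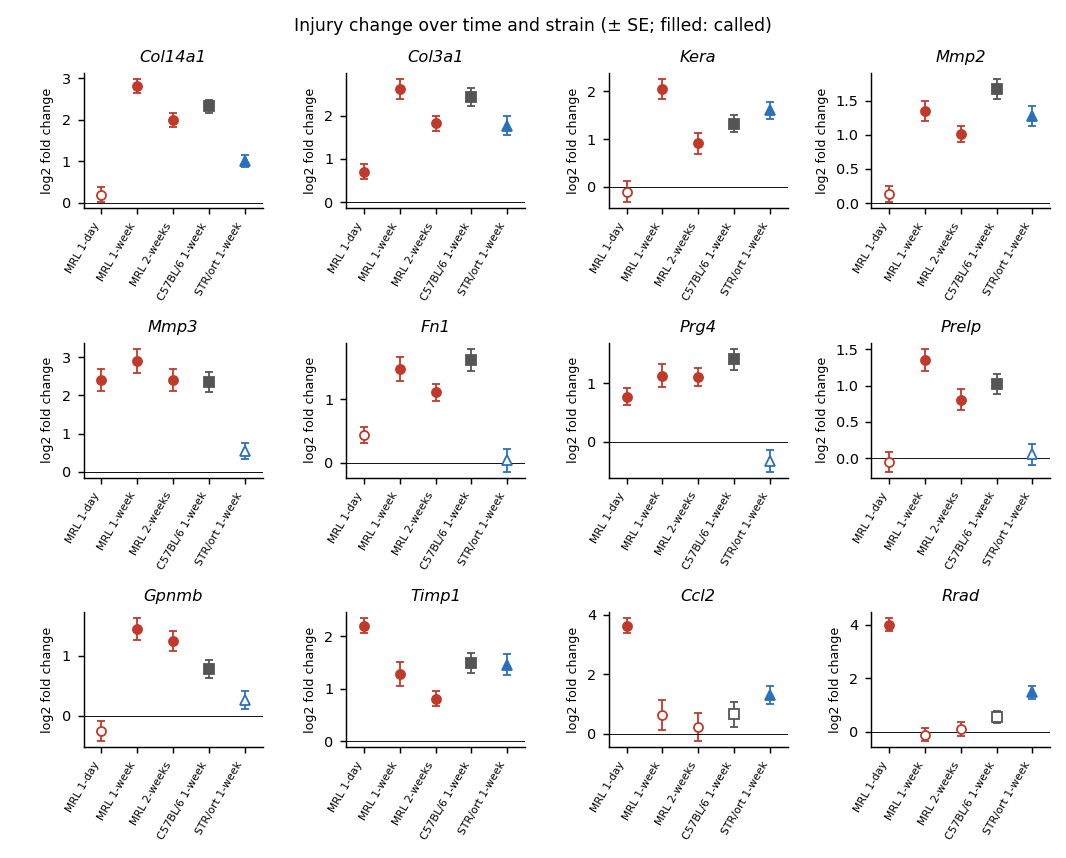
Log2 fold change between injured and uninjured joints with its SE for 12 genes, in MRL/MpJ at the 3 times after injury (red circles) and at 1-week in C57BL/6 (grey squares) and STR/ort (blue triangles), with filled symbols for called changes. Col14a1 and Kera were near 0 at 1-day and at 2.81 and 2.04 at 1-week in MRL/MpJ, Ccl2 and Rrad were at 3.63 and 4.00 at 1-day and not called at 1-week, and Fn1, Prg4 and Prelp were near or below 0 in STR/ort.

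Between strains at 1-week, the injury change of MRL/MpJ was compared with that of C57BL/6 (5 injured and 5 uninjured joints) by the test of the interaction. No gene passed with edgeR or with DESeq2. The smallest adjusted p of edgeR was 0.9999. An unadjusted p below 0.05 was found in 505 of 17262 genes, a share below the 5% that chance alone gives. The lack of calls does not show that the responses were equal. In C57BL/6, 822 genes (4.76%) were called higher and 185 (1.07%) lower, and 427 of the 508 were among the 822, which is 84.1% and 51.9% of the lists. The difference of the changes, MRL/MpJ minus C57BL/6, was 0.17 ± 0.29 for Col3a1, -0.14 ± 0.25 for Fn1, 0.54 ± 0.45 for Mmp3 and 1.17 ± 0.28 for Nox4.

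Against STR/ort (5 injured and 4 uninjured joints), the change was larger in MRL/MpJ for 90 genes (0.521%) and smaller for 63 (0.365%). The total of 153 moved with the fit, to 96 when only the groups compared were fitted, 230 with DESeq2 and 340 and 319 with a replicate block by title or library number. It also depended on single libraries, as it was 98 without uninjured replicate 1, 100 without uninjured replicate 2 and 240 without injured replicate 3. In STR/ort 981 genes (5.68%) were called higher and 611 (3.54%) lower, and 350 of the 508 were among the 981, which is 68.9% and 35.7% of the lists. The genes named next held their call in every fit that left out 1 of the 9 MRL/MpJ libraries. In several matrix genes the uninjured joints of STR/ort were already high and varied much. Mmp3 was at 64.6 ± 30.0 CPM (SD, n = 4) in uninjured and 93.6 ± 18.1 CPM (n = 5) in injured STR/ort joints, both above the 19.8 ± 2.81 CPM (n = 5) of injured MRL/MpJ joints, and its change differed by 2.35 ± 0.39 (adjusted p = 0.0013). Fn1 was at 8275 ± 3710 CPM in uninjured and 8486 ± 1331 CPM in injured STR/ort joints, where MRL/MpJ had 1070 ± 147 and 2928 ± 67.4 CPM, a difference of changes of 1.45 ± 0.26 (adjusted p = 0.0027). Prg4 was at 10630 ± 5457 and 8474 ± 1531 CPM in STR/ort, and its change differed by 1.46 ± 0.27 (adjusted p = 0.0038). For these 3 genes the injured joints of MRL/MpJ remained below the mean of the uninjured joints of STR/ort. Prelp (difference 1.30 ± 0.20), Nox4 (1.74 ± 0.27), the macrophage genes Gpnmb (1.19 ± 0.23) and Folr2 (1.57 ± 0.31) and the complement gene C4b (1.31 ± 0.26) also had larger changes in MRL/MpJ, and Folr2, C4b and Prg4 had negative changes in STR/ort (-0.55 ± 0.20, -0.42 ± 0.16 and -0.33 ± 0.19) that were not called, although Folr2 passed the adjusted p at 0.046.

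The smallest adjusted p of this comparison belonged to genes that fell in STR/ort and not in MRL/MpJ, besides Col14a1, which rose in both strains (2.81 ± 0.17 and 1.01 ± 0.15, difference 1.80 ± 0.21). Megf10, a receptor of muscle satellite cells, fell in STR/ort from 23.3 ± 7.73 (n = 4) to 9.41 ± 1.02 CPM (n = 5) and had a change of 0.47 ± 0.15 in MRL/MpJ that was not called (difference 1.77 ± 0.21, adjusted p = 1.3e-05). Tnxb, a tenascin of loose connective tissue, fell in STR/ort by 1.24 ± 0.16 on the log2 scale and was called higher in MRL/MpJ (0.61 ± 0.17, adjusted p = 0.026). Only 3 of the 9 fits leaving out 1 library kept that call, those without injured replicate 2, 3 or 4 (adjusted p up to 0.11). A replicate block by title or library number ended it too. The interaction of Tnxb was 1.85 ± 0.23 (adjusted p = 3.1e-05). Ccdc3 (1.34 ± 0.16), Cadm3 (1.46 ± 0.17) and Pcsk6, a proprotein convertase (1.23 ± 0.17), had the same form. In the other direction stood genes that rose in STR/ort and moved less in MRL/MpJ. Tnnt2, a troponin of cardiac and regenerating muscle, rose in STR/ort by 3.06 ± 0.28, from 4.45 ± 1.12 to 36.8 ± 13.5 CPM, and was not called in MRL/MpJ (0.70 ± 0.33, adjusted p = 0.32; difference -2.36 ± 0.44). The long noncoding RNA H19, of fetal tissue and muscle, rose by 1.98 ± 0.19 in STR/ort and differed by -1.35 ± 0.25, its call in MRL/MpJ (0.62 ± 0.18, adjusted p = 0.037) being lost without injured replicates 3 or 4 or any 1 uninjured replicate (adjusted p up to 0.12). Il1rl1, the receptor of Il33, differed by -1.46 ± 0.23, Bcl6b of endothelium by -1.16 ± 0.19, Lrrc17 by -0.97 ± 0.17 and Plpp1 by -0.67 ± 0.12, and none of these 4 was called in MRL/MpJ. Of the 15 fast muscle genes 12 were called lower in STR/ort and none in MRL/MpJ, but 0 of the 15 passed the test of the difference between the strains, and the part of muscle in these results was not tested.

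**Figure D5:**
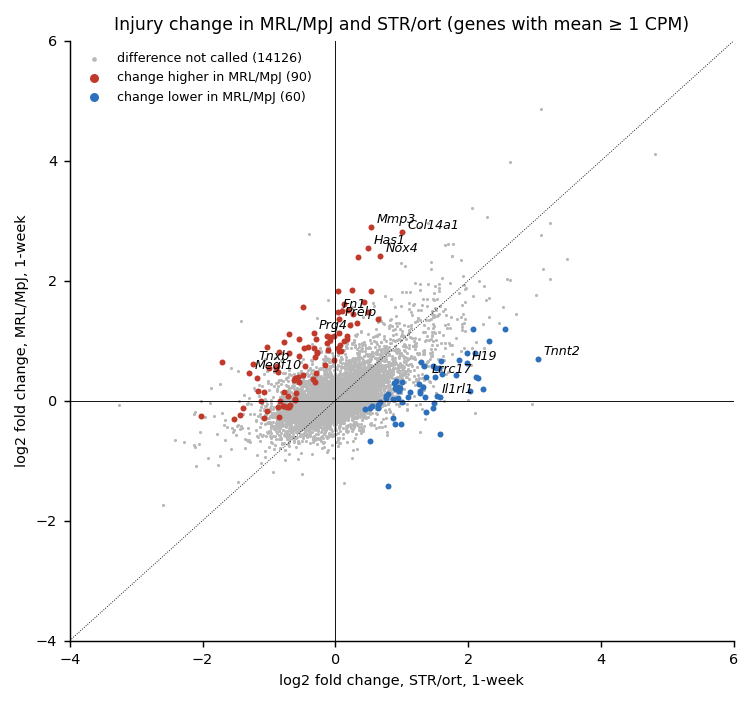
Log2 fold change between injured and uninjured joints at 1-week in STR/ort (horizontal axis) and in MRL/MpJ (vertical axis) for the 14276 genes with a mean of at least 1 CPM, with the dotted line at equal change. Red points are 90 genes whose change was higher in MRL/MpJ and blue points 60 whose change was lower, and grey points are the 14126 genes without a called difference. Mmp3, Fn1 and Prg4 lie above the line with changes of 0.54, 0.03 and -0.33 in STR/ort, none of them called, and Tnnt2 and H19 lie below it.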

How the data were processed

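Poly(A)-selected RNA of whole knee joints was sequenced. The authors aligned reads to mm10 with TopHat2 (2.0.11), counted them per RefSeq gene with featureCounts and deposited the raw counts, which are whole numbers without normalization. Of 17313 rows, 3 repeats were dropped, and 24 names that had become dates were left as they are. Total counts of 7520285 to 12253482 limit the precision for genes at a few CPM. The counts were tested with edgeR (4.0.16, R 4.3.3) by the quasi-likelihood test with TMM scaling, a mean per group and Benjamini-Hochberg adjustment, and this is the test behind each adjusted p that names no other tool. The fit held the 28 libraries of 1-week (genes with at least 2 counts in at least 5 of them, which removed 48) or, for time, the 29 injured and uninjured MRL/MpJ libraries. Calls needed an adjusted p below 0.05 and over 1.5-fold, the thresholds of the study. Each SE is the log2 fold change divided by the root of F. CPM values use TMM factors of all 100 libraries.

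Named genes were the 15 higher and 10 lower with the smallest adjusted p and a mean of at least 1 CPM, up to 4 called and the first 2 measured genes of each list, the 6 with the smallest adjusted p per interaction and direction, and genes that the study names. Some genes that fall under these rules are left out of the text. Agtr2, C1qtnf3, Ereg, Crabp2 and Rspo2 and the list of imprinted genes were added after their values were seen. The members and lists were chosen with earlier results of these data known. Alternatives were RLE factors, housekeeping scaling, RUVg with 1 or 2 factors of unwanted variation from 25 housekeeping genes, DESeq2 (1.42.0), a test against 1.5-fold (glmTreat), other filters, no fold threshold, the compared groups alone, replicate blocks and each library left out. The fits were tested on simulated data. Symbols of 16662 of 17310 genes matched RefSeq, which gave positions and promoters.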

Additional observations from a re-analysis of the deposited data

Results flagged for a closer look

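In each group of 4 or 5 libraries the most extreme level of each named gene was compared with the others of its group by Dixon's gap. Of 372 such groups of values 25 (6.72%) had an extreme library, where chance flags about 1 in 20, and 10 of the 25 were injured replicate 3 and 8 uninjured replicate 4. Injured replicate 3 was the highest injured joint for Col3a1 (6039 CPM), Igfbp7 (303 CPM), Fndc1 (272 CPM), Pecam1 (108 CPM), Htra1 (103 CPM), Angptl1 (100.2 CPM), Dkk3 (97.8 CPM), Igf2 (44.6 CPM), Ptgs2 (10.5 CPM) and Ccl2 (1.11 CPM). Uninjured replicate 4 was the highest uninjured joint for Col1a2 (7453 CPM), Ctsk (398 CPM), Acp5 (324 CPM), Mmp14 (156 CPM), Lox (86.0 CPM), Pcolce (62.8 CPM), Mt2 (48.9 CPM) and Loxl1 (20.6 CPM). The other 7 were Acta1 (11060 CPM) and Tnnt2 (4.86 CPM) in uninjured replicate 1, Megf10 (8.62 CPM) and a low Tnxb (39.4 CPM) in uninjured replicate 2, Cxcl1 (0.50 CPM) in uninjured replicate 3, and Msr1 (20.01 CPM) and Dlk1 (4.05 CPM) in injured replicate 2.

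The injury change at 1-week differed from that of STR/ort by the test of the interaction, as log2 differences of MRL/MpJ minus STR/ort, in Mmp3 (2.35), Tnxb (1.85), Col14a1 (1.80), Megf10 (1.77), Nox4 (1.74), Folr2 (1.57), Prg4 (1.46), Cadm3 (1.46), Fn1 (1.45), Ccdc3 (1.34), C4b (1.31), Prelp (1.30), Pcsk6 (1.23) and Gpnmb (1.19) on the higher side. On the lower side were Tnnt2 (-2.36), Il1rl1 (-1.46), H19 (-1.35), Bcl6b (-1.16), Lrrc17 (-0.97) and Plpp1 (-0.67).

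It differed from that of MRL/MpJ at 1-day, as 1-week minus 1-day, in Angptl1 (3.42), Col14a1 (2.58), Ssc5d (2.56), Kera (2.12), Aspn (2.05), Sfrp2 (1.94), Col3a1 (1.87), Gpnmb (1.67), Antxr1 (1.51), Mmp2 (1.19), Itih5 (1.01) and Timp2 (0.93) on the higher side. On the lower side were Rrad (-4.14), Ccl2 (-3.03), Mt2 (-2.38), Mt1 (-1.70), Msr1 (-1.15), Il4ra (-1.13), Timp1 (-0.96), Cxcl14 (-0.95) and Ankrd10 (-0.87).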

How the results depend on the processing

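The 508 higher genes of the main comparison ranged from 490 to 557 over other scalings, filters and tests, and from 429 to 511 when 1 library was left out, except for a test against 1.5-fold itself, which gave 153, and the adjusted p alone with no fold threshold, which gave 741. The 33 lower genes were less firm, with 8 under 2 factors of unwanted variation, 0 in the test against 1.5-fold, 72 without a fold threshold, and 9 to 50 over the fits that leave out 1 library. Of the 541 calls 540 were shared with RLE factors, 527 with DESeq2 and 423 with 2 factors of unwanted variation. The 153 genes that differed from STR/ort became 230 with DESeq2, 96 when only the groups compared were fitted, and 98 to 240 when 1 MRL/MpJ library was left out. Against 2-weeks the 0 became 3 with RLE factors, 2 with 1 factor of unwanted variation, 36 with DESeq2, 2 with only the groups compared, and 0 to 59 when 1 library was left out, whereas the 241 against 1-day stayed between 215 and 266 when 1 library was left out and between 233 and 287 in the other settings, and the 0 against C57BL/6 stayed at 0 in every fit that left out 1 library. The causes of these shifts were not tested.

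The labels give both joints replicate numbers but name no animal. Deviations from the group means correlated between same-numbered joints at 0.0746 to 0.181 over 14276 genes, and at -0.125 to 0.316 when paired by the library numbers in the descriptions, so which joints came from the same animal is not known from these numbers. With a replicate block by title number there were 547 higher and 64 lower genes, 340 that differed from STR/ort and 5 from 2-weeks. With a replicate block by library number there were 529 higher and 47 lower, and 319 that differed from STR/ort. The muscle gene Actc1, not called otherwise in the fit of all 1-week libraries, was called lower with both blocks (-0.79, adjusted p = 0.0063, and -0.62, adjusted p = 0.019), and Acta1 with the block by title number (-0.61, adjusted p = 0.03).

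Over 186 named genes and the named differences, 4324 recomputed values kept their side of the call, 37 gained and 180 lost it, and none changed direction with a call. Of 122 called genes 60 were called in every setting, 32 were lost only in the test against 1.5-fold, and 101 held with each library left out. Genes under 1 CPM rest on about 10 counts or fewer per library.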

Other observations

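A further list was chosen after its values were seen. Imprinted genes, which are read from 1 parental copy and are known for growth in the fetus, were called higher in 11 of 21 tested, against 2.94% of all genes, with 0 lower, 10 not called and a median log2 fold change of 0.67. The noncoding RNAs Meg3, Rian and Mirg of the cluster on chromosome 12 had changes of 1.65 ± 0.16, 1.75 ± 0.18 and 1.80 ± 0.39 (SE), and their neighbour Dlk1, a membrane protein of progenitor cells, of 1.21 ± 0.27. Rtl1 (0.19 ± 0.58, adjusted p = 0.94) and Dio3 (0.67 ± 0.91, adjusted p = 0.84) of the same cluster, at about 1 CPM or less in every joint, were not called. Rian was at 37.8, 33.9, 48.6, 41.1 and 30.9 CPM in injured joints and at 14.0, 11.9, 10.7 and 10.5 CPM in uninjured joints, with no overlap. The transcripts of this cluster lie close together, and whether the counting used strand is not given in the sources used here. Mest rose by 1.20 ± 0.22, Grb10, an adaptor that dampens insulin and IGF signalling, by 1.07 ± 0.13, Plagl1, a zinc finger factor, by 0.69 ± 0.14, and Igf2 and H19 are given with the growth factors and the strains. Peg3 (0.71 ± 0.19) and Ndn (0.70 ± 0.16) were called, but Peg3 was not without injured replicate 3 or 4 or uninjured replicate 2 or 3 (adjusted p up to 0.13), and Ndn was under 1.5-fold without uninjured replicate 1 (0.54). With 2 factors of unwanted variation Dlk1, Plagl1 and Peg3 lost their calls (adjusted p = 0.079, 0.074 and 0.13). At 1-day in the same strain the list had a median of -0.03 with 1 gene higher and 1 lower, and at 2-weeks 0.29 with 3 higher. In C57BL/6 at 1-week its median was 0.99, with 13 higher and 0 lower. In STR/ort at 1-week its median was 1.19, with 14 higher and 2 lower. The rise was thus not particular to MRL/MpJ. Members such as Gnas (-0.04 ± 0.08), Nnat (-0.13 ± 0.22) and Igf2r (0.22 ± 0.10) were not called at 1-week.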
